A study of Mus musculus with 6 samples.

Results

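Nucleoporins are the proteins that build the nuclear pore complex, the gated channel through both membranes of the nuclear envelope. The members described here were a fixed list of 31 mouse genes in 6 subcomplexes: the Y complex, the inner ring, the central channel, the cytoplasmic side, the nuclear basket and the transmembrane ring. A member was read from the microarray probe sets annotated to its symbol alone, with Nupl1 counted as Nup58 and Nupl2 as Nup42. Of the 31 genes, 29 had such a probe set and together they had 83. Nup35 of the inner ring and Tpr of the basket had none and are not described further.

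The samples were total RNA of C2C12 cells, an immortal mouse myoblast line derived from muscle satellite cells, which leaves the cell cycle and fuses into myotubes when serum is lowered. There were 3 arrays of proliferating cells kept in 20% fetal calf serum. Another 3 arrays were of cells on day 6 in 2% horse serum, called differentiated below. The source and the amount of serum changed together with the group. No transgene or drug treatment was described for these samples, apart from antibiotics in both media. The cells of both groups were the same line. Each RNA sample was a combination of pooled plates, as the methods describe it, so replicate error here is the variation among pools of plates. On day 6 the dishes held multinucleated myotubes and mononucleated cells together.

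The scaffold of the pore is made of stacked rings. The Y complex forms the outer rings on both faces, the inner ring lines the equator, and transmembrane nucleoporins anchor the whole to the pore membrane. Nucleoporins rich in phenylalanine and glycine repeats fill the channel and bind transport receptors, filaments on the cytoplasmic side release exported mRNA, and a basket reaches into the nucleus. In dividing cells pores are taken apart and rebuilt with each open mitosis, and scaffold nucleoporins are known to be long-lived in cells that no longer divide.

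The cultures matched their labels by the marker lists of myotubes and of dividing cells. All 8 listed genes of myotubes were higher in the differentiated cells, with a summed signal of 687.9 to 851 on the proliferating arrays and 74396 to 80025 on the differentiated arrays. All 7 measured genes of dividing cells were lower, with a sum of 17085 to 17588 falling to between 1322.5 and 1375. Of 3 markers of myoblast identity 0 were lower and 1, Des, was higher (sum 6066 to 6902 against 9683 to 10073). Myod1 and Myf5 did not pass, with log2 changes of 0.28 and -0.10. None of the 3 markers of quiescent satellite cells passed the test, and Pax7 and Calcr were below the brightest bacterial control on every array (summed signal 111.7 to 147.6 against 114.2 to 225.2). Of 3 measured fat cell markers 1, Pparg, was lower (sum 256.9 to 296.6 against 191.1 to 274.5). Of 4 fibroblast markers 2, Pdgfra and Dcn, were higher (sum 6642 to 8065 against 10615 to 11579). Most of that sum is Col1a1, which did not pass (log2 0.24). Dcn went from 96.2, 5.7 and 93.8 to 2066, 2277 and 2486, a log2 change of 5.18 (limma adjusted p of 9.3e-06). Its proliferating signals were near or below the brightest bacterial control, so that size is uncertain. No marker was listed at 0.

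Most nucleoporin transcripts were lower in the differentiated cells. With limma on log2(signal + 15), 17 of the 29 measured members were lower at an adjusted p under 0.05 and 0 were higher. Each gene was read from its brightest probe set. The background was 9.00% lower and 8.63% higher among the 18193 genes read in the same way. Among the 11216 genes whose probe set was above the brightest bacterial control on every array of a group, 14.4% were lower and 13.7% were higher. At an unadjusted p under 0.05, 20 members were lower and 2, Ranbp2 and Nup210, were higher, and a regularized test called 1 member, Nup210, higher. The median log2 change over the 29 members was -0.62, with a range of -1.39 to 1.52, beside a median of 0.06 over all 18193 genes. The top of that range is Nup210, which was not above background in proliferating cells. Without it the highest value was 0.34. Of the 17 lower members, 16 were lower by at least 1.5-fold. The count of 17 became 10 with limma's prior variance taken without a trend on signal and 11 when all probe sets of a gene were averaged, dim ones included. The first of these lost Nup133, Nup93, Nup155, Nup54, Nup58, Nup50 and Ndc1, and the second lost Nup133, Nup160, Nup155, Nup188, Nup54 and Pom121.

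The arrays of the 2 groups did not overlap for 20 members that were lower and for 2 that were higher in the differentiated cells, against backgrounds of 15.4% and 18.0% of genes. Among the genes above background on every array of a group these shares were 22.5% and 25.1%. Of the 29 members, 28 were above the brightest bacterial control on all 6 arrays, Nup210 being the exception. In these bulk samples, fewer cells of a type and less RNA per cell cannot be told apart. The genes of dividing cells fell together with the nucleoporins, and their part in the result was not tested.

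The subcomplexes differed in how many members fell. The inner ring had all 4 measured members lower, the channel 3 of 4, the Y complex 6 of 9, the transmembrane ring 2 of 3, the basket 1 of 2 and the cytoplasmic side 1 of 7. The median log2 changes were -0.84 for the Y complex, -0.72 for the inner ring, -0.72 for the transmembrane ring, -0.58 for the channel, -0.35 for the basket and -0.11 for the cytoplasmic side. Outside the cytoplasmic side 16 of 22 measured members were lower, with a median of -0.69. Whether the subcomplexes differ from each other was not tested, since the members of a subcomplex are not replicates. Relative to the mean of the proliferating arrays, the median Y complex member stood at -0.86, -0.72 and -0.86 on differentiated arrays 1 to 3. The median inner ring member stood at -0.82, -0.66 and -0.88. The median member of the cytoplasmic side stood at -0.05, -0.08 and -0.17, and that of the basket at -0.29, -0.34 and -0.41. For the channel the values were -0.60, -0.45 and -0.63, and for the transmembrane ring -0.63, -0.54 and -0.95. All of them are taken from the same proliferating mean and restate the group change by array, so they are no separate support for a difference between subcomplexes.

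**Figure D1:**
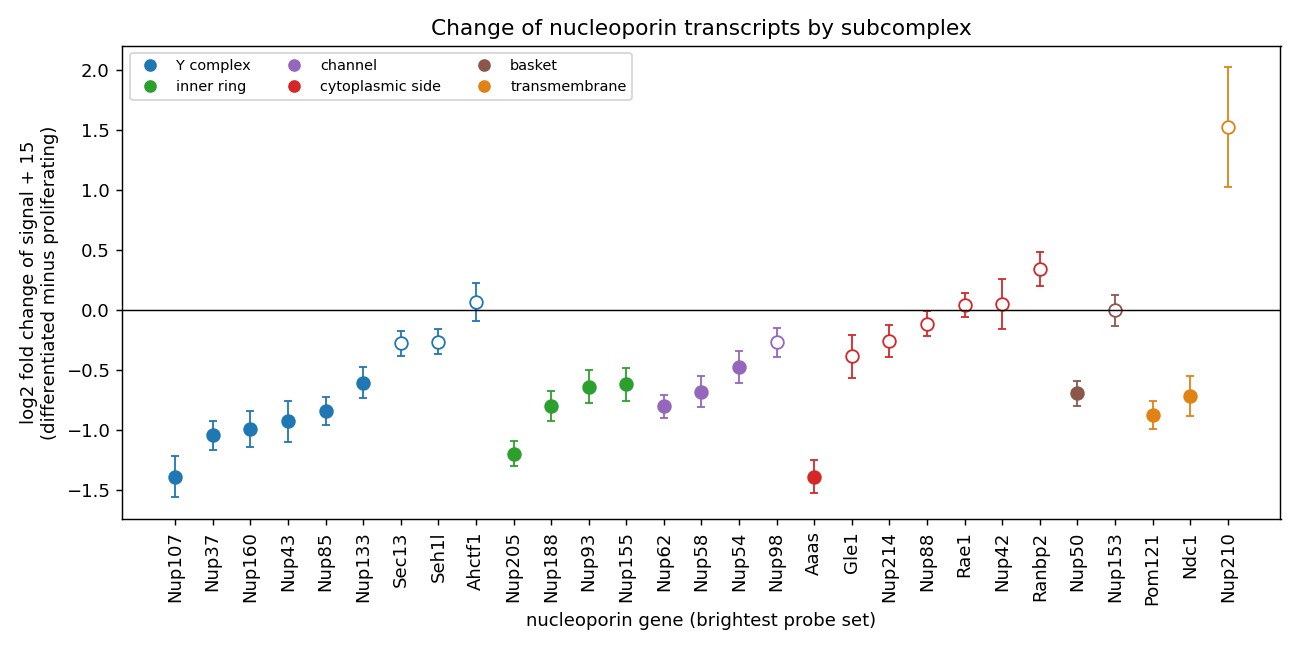
Log2 change of signal + 15, differentiated minus proliferating, for the 29 measured nucleoporins by subcomplex, each from its brightest probe set with its standard error (3 arrays a group). Filled points passed an adjusted p of 0.05 in limma and open points did not: 17 filled points lie below 0, and the cytoplasmic side holds 1 of them.

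Promoters were examined because so many members fell together. Sequences were taken from RefSeq on the build GRCm38.p6, and 27 of the 31 members matched, with 30 start sites. Nup43, Nup85, Seh1l and Nup35 did not match. The 5 sequences printed here are the 250 bases before the start site, read 5′ to 3′ on the strand of the gene. They are the 3 lower members with an NRF1 word (Nup107, Nup62 and Nup50), the member of the cytoplasmic side that was lower (Aaas), and for contrast Rae1, of the same side, which was not called. Capitals mark a match to a word for CCAAT, NRF1, ETS, E2F or CHR on either strand.
Nup107, chr10:117792706-117792955, minus strand: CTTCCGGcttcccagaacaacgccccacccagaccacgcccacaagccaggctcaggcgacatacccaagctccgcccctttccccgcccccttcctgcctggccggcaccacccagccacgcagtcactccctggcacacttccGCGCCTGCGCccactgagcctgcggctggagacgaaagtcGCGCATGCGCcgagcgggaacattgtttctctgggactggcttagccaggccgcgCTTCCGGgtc
Nup62, chr7:44815838-44816087, plus strand: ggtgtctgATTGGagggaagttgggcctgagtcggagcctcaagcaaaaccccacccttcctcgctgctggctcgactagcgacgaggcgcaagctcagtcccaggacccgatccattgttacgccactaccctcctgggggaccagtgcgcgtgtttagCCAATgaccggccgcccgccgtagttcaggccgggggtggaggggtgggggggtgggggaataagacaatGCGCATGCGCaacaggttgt
Nup50, chr15:84923178-84923427, plus strand: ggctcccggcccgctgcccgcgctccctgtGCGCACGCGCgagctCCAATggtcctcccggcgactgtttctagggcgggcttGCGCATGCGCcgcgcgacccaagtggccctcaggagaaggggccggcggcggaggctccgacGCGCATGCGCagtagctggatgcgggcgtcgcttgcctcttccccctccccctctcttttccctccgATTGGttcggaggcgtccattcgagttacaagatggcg
Aaas, chr15:102350760-102351009, minus strand: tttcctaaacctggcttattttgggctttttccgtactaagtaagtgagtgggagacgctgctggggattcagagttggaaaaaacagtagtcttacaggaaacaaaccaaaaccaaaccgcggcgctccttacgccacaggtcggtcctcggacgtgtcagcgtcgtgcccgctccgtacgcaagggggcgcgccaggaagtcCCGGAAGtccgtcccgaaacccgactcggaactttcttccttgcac
Rae1, chr2:172999867-173000116, plus strand: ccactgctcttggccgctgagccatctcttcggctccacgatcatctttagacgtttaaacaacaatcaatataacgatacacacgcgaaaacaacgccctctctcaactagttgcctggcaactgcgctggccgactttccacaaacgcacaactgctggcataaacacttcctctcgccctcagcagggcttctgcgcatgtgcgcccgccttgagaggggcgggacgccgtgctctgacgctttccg

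Motif words were counted on both strands in windows of 300 bases, from 250 before to 50 after the start, in the 30 member windows and in all 32851 promoters of the table. Nup37, Nup93 and Nup98 have several windows, and those of Nup37 overlap. A gene, and in Nup37 the same letters, can therefore count more than once. The palindromic NRF1 word, with any base allowed at one place, was in 4 member windows (13.3%), those of Nup107, Nup62, Nup50 and Rae1. It was in 4.6% of all promoters and in 6.38% of the 21263 promoters of protein-coding genes, and for the words that follow these shares are given in the same order. Its exact form, a subset of the same matches, was in 3 member windows against 0.971% and 1.33%. In the printed bases the word lies from 105 to 96 and from 65 to 56 bases before the start of Nup107, and from 20 to 11 bases before that of Nup62. It lies from 220 to 211, 167 to 158 and 105 to 96 bases before the start of Nup50, and the Rae1 match is in the 50 bases after the start, which are not printed. The ETS word CCGGAAG was in 9 member windows (30.0%), Rae1 and Aaas among them, against 8.86% and 11.6%. By gene it was in 8 of 27 (29.6%). It lies from 46 to 40 bases before the start of Aaas and at 2 places in Nup107, from 250 to 244 and from 10 to 4. The ETS match of Rae1, like its NRF1 match, is in the bases after the start.

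Words known from cell cycle promoters were also counted. Any of 4 E2F words, TTTGGCGC, TTTCGCGC, TTTCCCGC and TTTGCCGC, was in 1 member window (3.33%), that of Nup210, against 2.26% and 2.85%, and in 0 of the 17 windows of lower members. The CHR word TTTGAA was in 7 windows (23.3%) against 17.9% and 16.0%, and TTCGAA in 0 against 1.56% and 1.85%. CCAAT was in 12 of the 30 windows against 37.4% and 38.2%. By gene TTTGAA was in 6 of 27 (22.2%) and CCAAT in 10 of 27 (37.0%). The YY1 word AAGATGGC was in 4 windows (13.3%) against 2.75% and 3.05%, the Sp1 word GGGCGG in 19 (63.3%) against 35.7% and 46.2%, and the E box CAGCTG in 1 (3.33%), that of Ndc1, against 16.3% and 15.6%. The median GC content was 63.7% in the member windows 52.7% in all windows and 56.3% in those of protein-coding genes, and the comparison of words was not matched for GC content. By gene, the ETS word was in 33.3% of the 15 matched lower members and 27.3% of the 11 that did not pass. In the same order the Sp1 word was in 66.7% and 63.6%, CCAAT in 33.3% and 36.4%, and TTTGAA in 20.0% and 18.2%. The NRF1 word with any base at one place and the YY1 word were each in 20.0% and 9.09%. Whether any word goes with the lower calls was not tested. The words shown are matches of letters and not sites of binding.

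Y complex members fell in 6 of 9 cases. Nup107, a core subunit that the assembly of the complex needs, gave 1099.5, 853 and 837 signal units in proliferating cells, and 426, 359 and 263 in differentiated cells. Every differentiated array was under the lowest proliferating array. The fall was 2.62-fold, a log2 change of -1.39 ± 0.17 (SE, n = 3 arrays a group), with an adjusted p of 0.00011 in limma. Nup107 had a single probe set, of the kind that Affymetrix marks as able to match related transcripts.

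Nup37 and Nup43 are WD-repeat subunits of the vertebrate Y complex. Nup37 went from 1313, 1541 and 1132 to 644, 606 and 644, a fall of 2.06-fold (log2 -1.05 ± 0.12, limma adjusted p of 6e-05). Its differentiated arrays lay close together and far from the proliferating ones. Nup43 went from 416, 501 and 421 to 186, 235 and 265, a fall of 1.9-fold (limma adjusted p of 0.0022). A second Nup43 probe set fell further, from 518, 494 and 504 to 237, 153 and 125 (log2 -1.52, limma adjusted p of 0.00022).

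Nup160, Nup85 and Nup133 are the other large scaffold subunits. Nup160 had signals of 581, 630.1 and 717 and then 299.9, 376 and 277, a fall of 1.99-fold (limma adjusted p of 0.00051). Nup85 had 1086, 1332 and 1128 and then 642, 708 and 603, a fall of 1.79-fold (limma adjusted p of 0.00024). The groups did not overlap for either gene. A second Nup85 probe set, with overlapping groups, did not pass (log2 -0.78, limma adjusted p of 0.052). Nup133 had 740.1, 841 and 807 and then 547, 586 and 432, a fall of 1.52-fold (limma adjusted p of 0.0077). A second Nup133 probe set passed with a log2 change of -0.61 (limma adjusted p of 0.048) and another did not, at -0.55 (limma adjusted p of 0.091).

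The last 3 subunits of the Y complex did not pass with their brightest probe sets. Sec13, which is also a coat protein of vesicles leaving the endoplasmic reticulum, had 2054, 2309 and 1805 and then 1690, 1695 and 1665. Its groups did not overlap, but the log2 change of -0.28 had a 95% interval of -0.50 to -0.05 and a limma adjusted p of 0.11. Without proliferating array 3 its log2 change was -0.37 and passed, at a limma adjusted p of 0.0497. Seh1l, shared with the GATOR complex that senses amino acids, had 799, 816 and 839.8 and then 710.3, 654 and 674. Its log2 change was -0.26, with an interval of -0.49 to -0.04 and a limma adjusted p of 0.13. Ahctf1, also called ELYS, which brings the Y complex to chromatin after mitosis, had 373, 328 and 469 and then 376, 447 and 393. Its arrays overlapped (log2 0.07, interval -0.28 to 0.41).

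Probe sets disagreed for Seh1l and Ahctf1. Another of the 7 Seh1l probe sets read 439, 428 and 473 and then 314, 244 and 247, a log2 change of -0.71 that passed (limma adjusted p of 0.0066). The remaining Seh1l probe sets did not pass, at -0.46, -0.27, -0.15, 0.04 and 0.16 (limma adjusted p of 0.32 to 0.97). Of the 4 Ahctf1 probe sets, another read 489.5, 452 and 521 and then 179.7, 328 and 282, a log2 change of -0.89 ± 0.20 (SE, n = 3 arrays a group) that passed as well (limma adjusted p of 0.0083). The remaining 2 did not pass, at -0.54 (limma adjusted p of 0.38) and -0.02 (0.99). Which transcript forms the probe sets read was not tested.

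**Figure D2:**
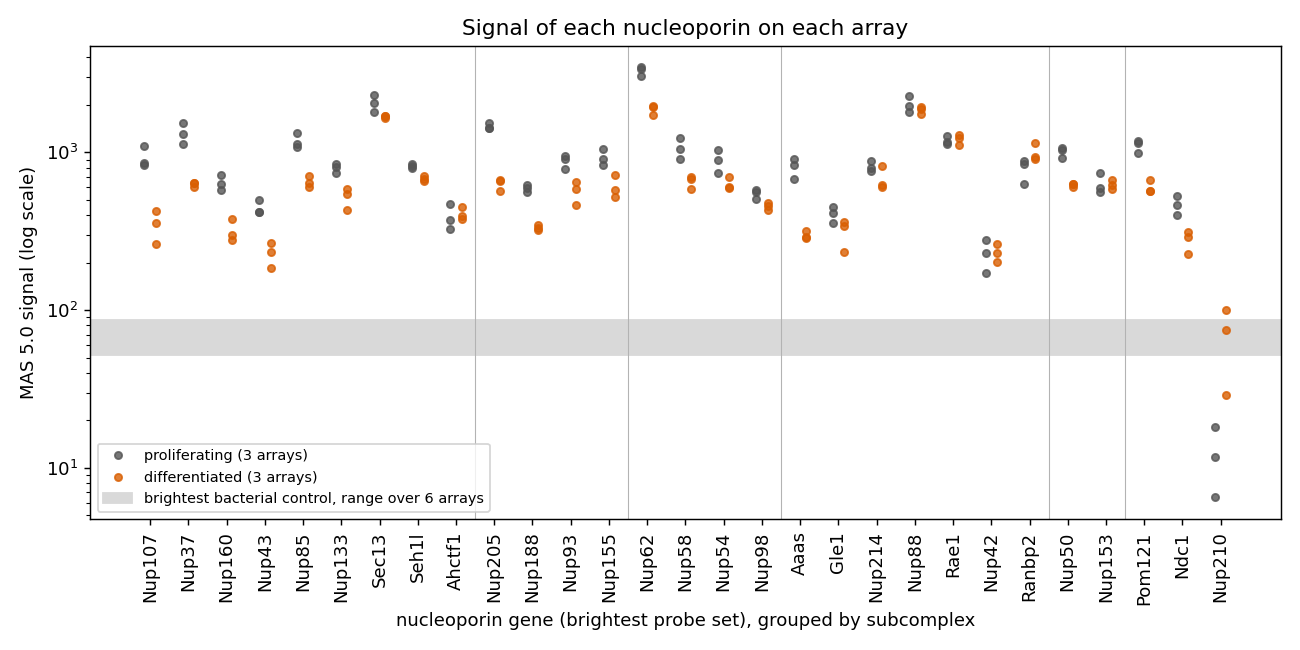
Signal of the brightest probe set of each measured nucleoporin on the 3 proliferating and 3 differentiated arrays, on a log scale, by subcomplex. The grey band is the range of the brightest bacterial control over the 6 arrays (51.9 to 87), and only Nup210 reaches into it.

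Inner ring members, which hold the scaffold together and anchor the channel proteins, fell in all 4 measured cases. Nup205, one of its largest subunits, had 1428, 1418 and 1534 and then 669, 655 and 568. The groups were separated by a wide gap, and the fall was 2.29-fold (log2 -1.20 ± 0.10, limma adjusted p of 5.7e-06). A second Nup205 probe set had a log2 change of -1.38 (limma adjusted p of 0.0023).

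Nup188, the paralogue of Nup205, went from 562, 622 and 597 to 332, 348 and 322, a fall of 1.74-fold (limma adjusted p of 0.00063). Its second, much dimmer probe set did not pass and its groups overlapped (log2 -0.04, limma adjusted p of 0.97). Nup93, the linker that binds both, went from 908, 948 and 789 to 645, 586 and 462, a fall of 1.56-fold (limma adjusted p of 0.0069). The groups of Nup93 and those of the brightest Nup188 probe set did not overlap. Nup155, which ties the ring to the membrane, went from 914, 832 and 1055 to 518, 722 and 575, a fall of 1.54-fold (limma adjusted p of 0.0093). That call was lost without proliferating array 3 (limma adjusted p of 0.055) and without differentiated array 1 (0.056). A second Nup155 probe set read 532, 504 and 514 and then 209.8, 149 and 209.7 (log2 -1.39, limma adjusted p of 8.1e-05).

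The central channel is filled by Nup62, Nup58 and Nup54, which form a trimer, and by Nup98. Nup62, the best known repeat nucleoporin of the channel, had 3458, 3361 and 3044 in proliferating cells and 1940.2, 1722 and 1978 in differentiated cells. The fall was 1.74-fold (log2 -0.80 ± 0.10, limma adjusted p of 8.6e-05), and 4 of its 5 probe sets fell, by log2 changes of -0.59 to -0.80. Nup58 went from 1054, 902 and 1243 to 677, 703 and 587, a fall of 1.6-fold (limma adjusted p of 0.0033). Of its 3 other probe sets 1 fell, by a log2 change of -0.75 (limma adjusted p of 0.0023). The others did not pass, at -0.89 (limma adjusted p of 0.086) and -0.15 (0.66), the last with overlapping groups.

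Nup54 fell less, from 1034, 740.1 and 899.5 to 593, 700.3 and 606 (1.39-fold, limma adjusted p of 0.034). Its groups were separated by a narrow gap, and the call was lost in 10 of 18 alternatives, among them leaving out proliferating array 1 or 3 or differentiated array 1 or 3. None of its 4 other probe sets passed, the 3 above background having log2 changes of -0.48, -0.25 and -0.13. The brightest probe sets of Nup54, Nup58 and Nup62 are of kinds that Affymetrix marks as able to match other transcripts. Of those 3 Nup54 probe sets only the one at -0.25 lacks such a mark (limma adjusted p of 0.31). For Nup62 and Nup58 an unmarked probe set passed, at -0.80 and -0.75. Nup98, whose transcript also encodes the Y complex subunit Nup96, had 562, 509.7 and 582 and then 432, 475 and 458. The groups did not overlap, but the log2 change of -0.27 did not pass (interval -0.53 to -0.01, limma adjusted p of 0.21).

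The cytoplasmic side had 1 called member. Aaas, or aladin, a WD-repeat protein of that face which Ndc1 holds at the pore, had 834, 909 and 682 and then 319, 285 and 291. It fell 2.62-fold (log2 -1.39 ± 0.14, limma adjusted p of 1.6e-05). The differentiated arrays were close to each other, at 298 ± 18.0 (mean and SD, n = 3), and far under the proliferating ones, at 808 ± 116.

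The factors of mRNA export on the same side did not pass. Gle1, the activator of the helicase that strips proteins from exported mRNA, had 415, 450.3 and 359 and then 235, 342 and 360.3 (log2 -0.39, interval -0.77 to 0.00, limma adjusted p of 0.22). Nup214, which binds that helicase and the exportin Xpo1, had 797, 883 and 764 and then 622, 824 and 607 (log2 -0.26, interval -0.55 to 0.03). Both genes had overlapping groups. Their other probe sets above background did not pass either. Those of Gle1 had log2 changes of -0.66, -0.28 and -0.11 (limma adjusted p of 0.19 to 0.89), and that of Nup214 had -0.60 (0.47). Nup88, the partner of Nup214, had 2266, 1963 and 1811 and then 1932, 1888 and 1742 (log2 -0.11, interval -0.34 to 0.11). Rae1, an mRNA export factor, had 1123, 1266 and 1160.4 and then 1295, 1119 and 1231 (log2 0.04, interval -0.18 to 0.26). Nup42 had 172, 229.6 and 279.7 and then 232, 264 and 203 (log2 0.05, interval -0.41 to 0.51), a wide interval at a low signal.

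Ranbp2, also called Nup358, which forms the cytoplasmic filaments and carries a SUMO ligase activity, ran the other way. It had 877, 631 and 848 and then 932, 1149.7 and 905. The groups did not overlap, but the log2 change of 0.34 did not pass (interval 0.04 to 0.65, limma adjusted p of 0.16). A second Ranbp2 probe set had a log2 change of -0.12 (limma adjusted p of 0.84).

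The basket members differed. Nup50, a mobile cofactor of importins, went from 1039, 928 and 1069.5 to 627, 628 and 599.7, a fall of 1.62-fold (log2 -0.70 ± 0.10, limma adjusted p of 0.00055). All 3 of its probe sets fell, the other two by -0.60 and -0.66. Nup153, which anchors the basket and binds lamins, had 593, 558 and 739.6 and then 668, 622 and 587. Its groups overlapped, and the log2 change was -0.0020 with an interval of -0.28 to 0.28.

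**Figure D3:**
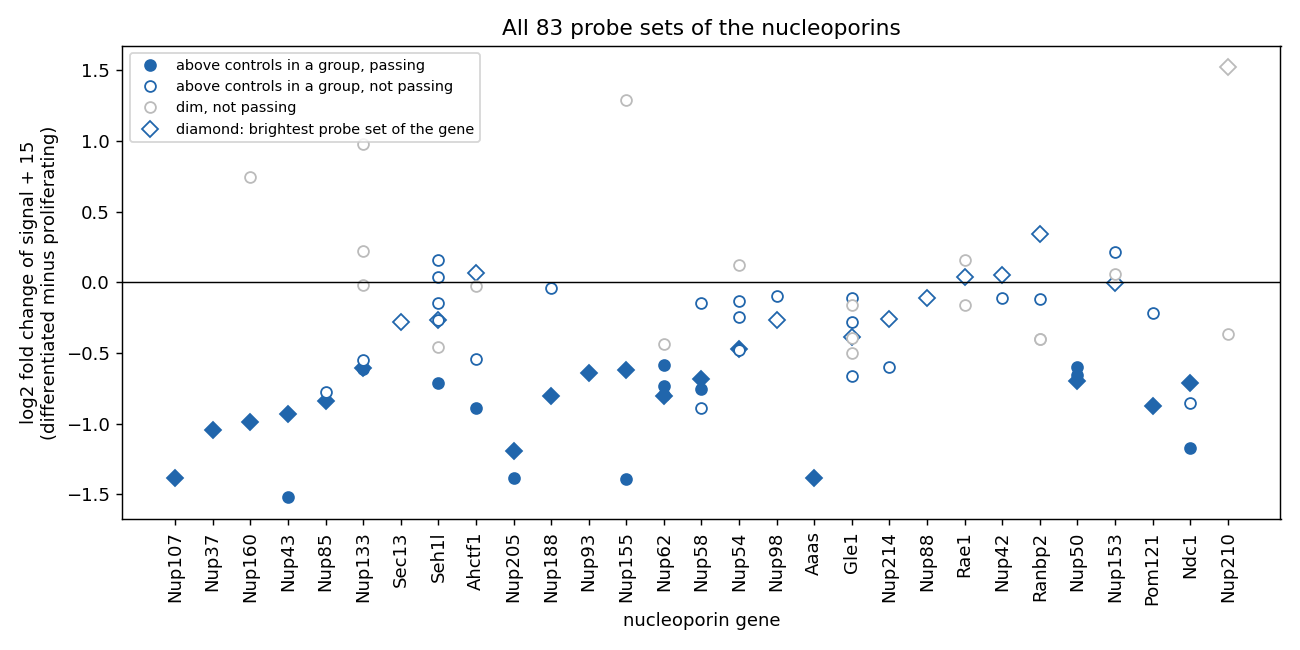
Log2 change of each of the 83 probe sets of the measured nucleoporins, by gene, with a diamond for the brightest probe set. Filled symbols passed an adjusted p of 0.05 in limma: 30 lie below 0 and 0 above it.

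The transmembrane ring had 2 lower members of 3. Pom121, an integral protein of the pore membrane needed to form pores, had 1154, 1185 and 996 and then 666, 568 and 567, a fall of 1.83-fold (log2 -0.87 ± 0.12, limma adjusted p of 0.00019). A second Pom121 probe set had a log2 change of -0.22 (limma adjusted p of 0.75). Ndc1 had 461, 529 and 401 and then 293, 313 and 226, a fall of 1.64-fold (limma adjusted p of 0.012). Without proliferating array 2 that call was lost (limma adjusted p of 0.053). Another Ndc1 probe set had a log2 change of -1.17 (limma adjusted p of 0.00033), and the remaining one, at -0.86, did not pass (0.14).

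Nup210, also called gp210, a glycoprotein of the pore membrane known for its rise in muscle differentiation, was near the limit of the array. Its signals were 18.2, 11.7 and 6.5 and then 28.9, 74.6 and 99.7. The 3 proliferating arrays were below the brightest bacterial control of their array (87, 60 and 55.7), and 2 of the 3 differentiated arrays were above theirs (51.9, 71.3 and 55.8). For that reason the size of its change is not reliable. The log2 change of 1.52 (interval 0.44 to 2.60) did not pass, at a limma adjusted p of 0.069. Its size moved with the pseudocount, being 2.43 with none and 0.88 with one of 49.6, and it was 0.58 over both Nup210 probe sets. Without differentiated array 1 it was 1.92 and passed (limma adjusted p of 0.038). The other Nup210 probe set was at background on all arrays.

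The changes of Pom121 and Ndc1 differed by -0.16 on the log2 scale (exact 2-sided permutation p of 0.3, and 0.3 adjusted over 3 pairs). The smallest p that 3 against 3 arrays allow is 0.1. The pairs with Nup210 are not given, since its level in proliferating cells was not above background.

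**Figure D4:**
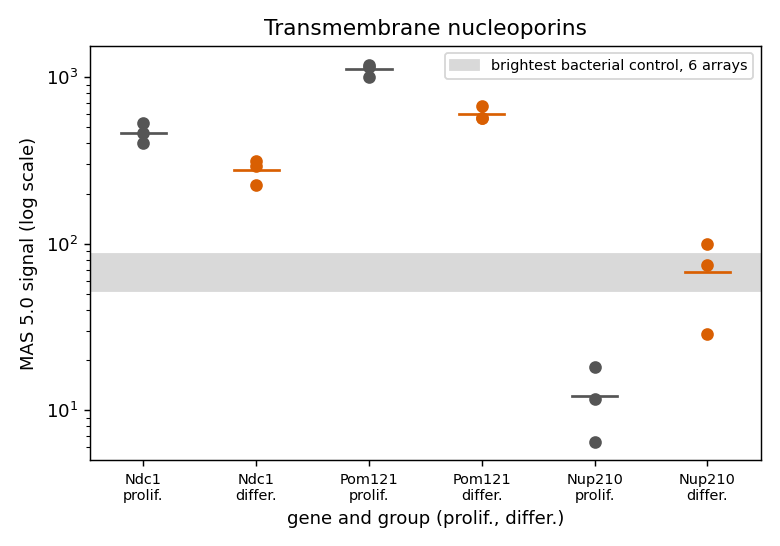
Signal of the 3 transmembrane nucleoporins on each array, on a log scale, with the mean of each group as a horizontal line and the range of the brightest bacterial control as a grey band. Pom121 and Ndc1 are lower on the differentiated arrays. The differentiated Nup210 signals of 28.9, 74.6 and 99.7 lie below, inside and above the band.

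Over all 83 probe sets, 30 were lower, 0 were higher and 53 did not pass, against 6.43% lower and 6.14% higher of the 45037 probe sets tested. At an unadjusted p under 0.05, 3 probe sets were higher, and the regularized test called 1 higher. Of the 64 probe sets above background on all arrays of a group 30 were lower, and of the 19 dimmer ones 0 were. Counting any probe set, 19 members had at least 1 lower, which adds Seh1l and Ahctf1 to the 17.

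The other genes of nuclear transport, from a list of importins, exportins, Ran regulators and enzymes at the pore, fell in part. Of 37 listed genes 34 were measured, 13 were lower, 2 were higher and 19 did not pass, with a median log2 change of -0.36. The background was 9.00% lower and 8.63% higher among all 18193 genes. Among the 11216 genes above background on every array of a group it was 14.4% and 13.7%. The summed signal of the list was 60380 to 62163 on the proliferating arrays and 36516 to 37871 on the differentiated arrays. Ran, the GTPase whose cycle gives transport its direction, fell from 15371, 17152 and 15409.7 to 6769, 6848 and 7776 (2.24-fold, limma adjusted p of 9.3e-06). That probe set is of a kind that Affymetrix marks as able to match other transcripts. Further Ran probe sets so marked had log2 changes of -1.03, -0.85 and -0.83, which passed, and 0.15 in a dim one, which did not. The Ran probe set without such a mark fell less (log2 -0.35, limma adjusted p of 0.020).

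The regulators of Ran fell as well, none of them with overlapping groups in its brightest probe set. Ranbp1, a cofactor of GTP hydrolysis on Ran, had a log2 change of -1.88 (limma adjusted p of 2.2e-07). Rcc1, the exchange factor on chromatin, had -1.34 (0.00061), and Rangap1, the GTPase activator bound to Ranbp2, had -1.06 (0.00013). Kpna2, an importin alpha, had the largest change of the list, from 3831, 3508 and 3821 to 1039.5, 884 and 906 (log2 -1.97, limma adjusted p of 3.4e-08).

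Among receptors for export, Xpo1, the main exportin of proteins, had a log2 change of -0.69 (limma adjusted p of 0.0014) and Xpo5, which carries pre-miRNA, had -0.66 (0.022). Nxt1, a subunit of the mRNA export receptor, had -0.65 (0.0015). The higher genes, named after their values were seen, were Kpna1, another importin alpha, at 0.62 (limma adjusted p of 0.0014) and Cetn2, a centrin also found at the pore, at 0.40 (0.040). Both probe sets are of kinds marked as able to match other transcripts. The unmarked Kpna1 probe sets passed as well, at 0.55 to 1.20. The unmarked Cetn2 probe set did not pass and its groups overlapped (log2 0.26, limma adjusted p of 0.37). The count of 2 higher genes became 1 when any single array of the 6 was left out.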

How the data were processed

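The 6 arrays were Affymetrix Mouse Genome 430 2.0 arrays, a 1-colour platform. The authors' deposited values are linear signal intensities, made with MAS 5.0 per the submitters' processing notes. The authors also used GCRMA with a Bayesian regularized test, which needs probe-level data and was not repeated here. The number of arrays, 3 a group, limits the precision.

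The signals were used as deposited by adding 15, taking log2 and fitting limma 3.58.1 in R 4.3.3 (lmFit and eBayes with a trend) to all 6 arrays, with Benjamini-Hochberg adjustment over 45037 probe sets and a threshold of 0.05. A further 64 Affymetrix control probe sets were left out, and the brightest of 27 bacterial control probe sets set the background of each array. By platform annotation 34945 probe sets had 1 gene symbol, 932 had several and 9160 had none. A gene was read from its single-symbol probe set of highest mean. Groups came from the labels. Array numbers 1 to 3 were not used to pair the arrays in the main fit. The correlations of deviations between same-numbered arrays were 0.0125, 0.0007 and 0.0094. They were taken over all probe sets, many of them dim, and so cannot exclude a pairing.

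All measured members were named, and of the transport list up to 8 called genes of largest change. The 2 higher genes of that list were named beside them. The members and all lists were chosen with earlier results of these data known. Motif words were counted in Python 3.11.15. The fit was tested on simulated data. Alternatives changed the scaling, pseudocount, filter, prior, test, choice of probe sets and arrays. The regularized test used a window of 101 probe sets and a prior weight of 10, which are settings chosen here.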

Additional observations from a re-analysis of the deposited data

How the results depend on the processing

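The lower calls of Aaas, Nup107, Nup205, Nup37, Nup43, Nup62 and Nup85 were kept in every alternative in which they had a probe set. The alternatives were 17 planned ones and 1, the mean over a gene's probe sets above background, chosen after seeing the data. With the prior variance taken without a trend, 10 members were lower (inner ring 2, channel 1, basket 0, transmembrane 1), 16 of all member probe sets, and 5 transport genes were lower and 0 higher. The regularized test called 1 member and 1 probe set higher. With the mean over all probe sets of a gene, 11 members were lower, the median was -0.36 (Y complex -0.35, inner ring -0.53), the inner ring had 2 lower and the transmembrane ring 1. With the mean over those above background 18 members were lower, Nup214 (cytoplasmic side then 2), Sec13 and Ahctf1 being added and Nup188 and Nup54 lost, and the inner ring median was -0.82. The cause of these shifts was not tested. The transport genes called higher numbered 1 after scaling to the 75th percentile, with no pseudocount, with the fold threshold, with either mean and without the _x_at and _s_at probe sets, where Nup107 had no probe set.

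Leaving out 1 array at a time gave a member median of -0.69 to -0.51, 0 to 1 members higher, 0 to 2 probe sets higher, 1 to 2 transmembrane members lower, and 1 transport gene higher each time. The array behind each change is named with the member in the report. The replicate number as a block left 1 transport gene higher and cost the call of Nup54 (limma adjusted p of 0.057), and no other member call changed with it.

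Changes of sign fell on members that were not called. After quantile normalization the log2 change of Nup42 was -0.017 and that of Nup153 was 0.014, and after scaling to the 75th percentile that of Rae1 was -0.014. With the mean over all probe sets Nup42 was -0.032, Nup153 0.089, Ahctf1 -0.35 and Ranbp2 -0.14. With the mean over those above background Nup42 was again -0.032, Nup153 was 0.10 and Ahctf1 was -0.46, the last a lower call. Leaving out 1 array at a time, Nup42 ranged from -0.12 (without proliferating array 1) to 0.20, Nup153 from -0.082 to 0.12 (without proliferating array 3), Rae1 from -0.0094 (without differentiated array 1) to 0.095 and Ahctf1 from -0.047 (without proliferating array 2) to 0.20. Signals under the bacterial controls have no reliable fold, which limits Nup210.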
